A study of Mus musculus with 18 samples.

Results

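Transcripts of 8 protein kinases that are known for their part in central sensitization were examined in the spinal dorsal horn (DHSC) of mice with a formalin-injected hind paw. The genes are *Camk2a* and *Camk2b*, which encode the α and β subunits of calcium/calmodulin-dependent kinase II (CaMKII), *Prkca* and *Prkcb*, which encode the α and β isoforms of protein kinase C (PKC), *Prkaca*, which encodes a catalytic subunit of protein kinase A (PKA), and *Mapk3* (ERK1), *Mapk14* (p38α) and *Mapk8* (JNK1) of the mitogen-activated protein kinases (MAPK). They were chosen by name, with earlier results of these data known. Each symbol led to a single Ensembl gene, so that 8 of the 55573 genes counted in the study are described here. RNA was sequenced from the ipsilateral DHSC of 18 adult C57BL/6J mice, collected 2 h after a 2% formalin solution had been injected into the paw. The mice formed 3 groups of 6, which were males, females in proestrus (F1/proestrus) and females in metestrus (F2/metestrus). In the study F1 and F2 are classes of pain behavior. F1 females had a short and F2 females a long interphase, the quiet period between the first and the second phase of formalin-evoked pain. Cycle phase and behavior thus go together in the female groups. All 18 animals had received formalin, and a naive group and the contralateral side were not analysed here. The values therefore compare the sexes, and females that differ in both cycle phase and behavior, within the formalin model. They do not measure a change after formalin.

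Central sensitization is the lasting gain in excitability of dorsal horn neurons that follows an intense nociceptive input. Calcium entering through NMDA receptors binds calmodulin and activates CaMKII, diacylglycerol and calcium activate PKC, cyclic AMP activates PKA, and the MAPK are activated downstream of these signals and, in glial cells, downstream of cytokine receptors. These kinases phosphorylate glutamate receptor subunits, potassium channels and transcription factors. They are themselves switched on by second messengers and by phosphorylation, so that the transcript level of a kinase is not a measure of its activity.

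Each library held between 73590509 and 125724156 counted reads (median 102556432). All 8 kinases passed the low-count filter, together with 24862 genes in all, and their raw counts ran from 705 (*Mapk8*, in an F2/metestrus sample) to 57527 (*Camk2b*, in a male), far above the 0.0240 to 0.0407 CPM (counts divided by the TMM-scaled size of the library and set to a common total) to which 3 counts correspond here. Markers of excitatory and inhibitory neurons were present in every sample. *Slc17a6*, the vesicular glutamate transporter of excitatory neurons, was at 238 to 276 CPM and *Slc32a1*, the vesicular transporter of inhibitory neurons, at 40.2 to 55.6 CPM. Other markers varied more between the samples. The summed level of 6 motor neuron markers ran from 22.9 to 322 CPM, and that of 5 Schwann cell markers from 590 to 2162 CPM. By markers of sensory ganglion neurons, a single library stood apart. F1/proestrus replicate 5 had a summed level of 410 CPM for 6 markers of sensory ganglion neurons (*Avil*, *Scn10a*, *Scn11a*, *Mrgprd*, *Trpv1* and *P2rx3*), while the other 17 libraries ranged from 1.25 to 2.63 CPM, and each of the 6 was highest there. In addition, the columns of the count table carry library numbers that fall into 2 sets, 27 to 35 for replicates 1 to 3 and 188 to 196 for replicates 4 to 6 of every group. The labels do not say what separates the sets. Where both were computed, results that turn on F1/proestrus replicate 5 are given with and without it. Differences between the sets are given beside the results they touch.

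**Figure D1:**
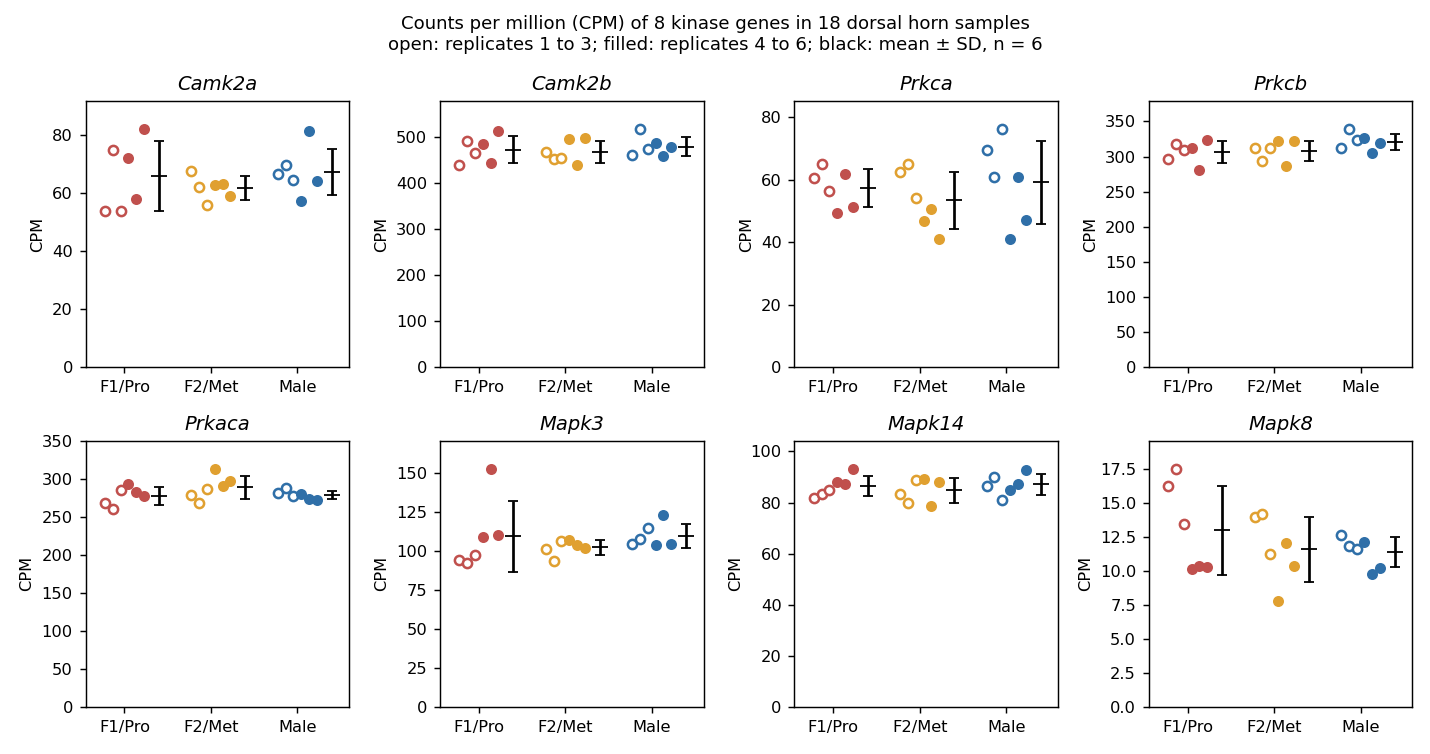
CPM (vertical axes, starting at 0) of the 8 kinase genes in the 6 F1/proestrus, 6 F2/metestrus and 6 male samples, with open points for replicates 1 to 3, filled points for replicates 4 to 6, and the mean ± SD of each group in black. The ranges of the 3 groups overlapped for each gene, the highest *Mapk3* value (152 CPM) was a single F1/proestrus sample, and the open points of *Mapk8* and *Prkca* tended to lie above the filled ones.

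Scaled to the length of the exons of each gene, *Prkaca* was the most abundant of the 8 transcripts, with 113 ± 4.86 CPM per kilobase (mean ± SD, n = 18). *Camk2b* followed with 51.9 ± 2.62, *Mapk3* with 47.5 ± 6.03, *Prkcb* with 40.8 ± 1.94 and *Mapk14* with 19.7 ± 0.954 CPM per kilobase. *Camk2a* (8.69 ± 1.14), *Prkca* (6.29 ± 1.08) and *Mapk8* (1.05 ± 0.209) were the least abundant on the same scale. *Prkaca* exceeded *Camk2b*, *Prkcb* exceeded *Mapk14*, *Mapk14* exceeded *Camk2a* and *Prkca* exceeded *Mapk8* without overlap over the 18 samples. The ranges of *Camk2b* and *Mapk3*, of *Mapk3* and *Prkcb* and of *Camk2a* and *Prkca* overlapped, although *Camk2a* was above *Prkca* in 18 of 18 samples, *Mapk3* above *Prkcb* in 17 and *Camk2b* above *Mapk3* in 16. When the length of the longest transcript was used in place of all exons, *Prkcb* moved ahead of *Mapk3* and the other places in the order stayed. The coefficient of variation over the 18 samples was 4.29% for *Prkaca*, 4.76% for *Prkcb*, 4.85% for *Mapk14* and 5.05% for *Camk2b*. It was higher for *Mapk3* (12.7%), *Camk2a* (13.1%), *Prkca* (17.1%) and *Mapk8* (19.98%). The median over genes within 2-fold of the mean level of each kinase lay between 7.76% and 11.1%. The *Mapk3* coefficient includes F1/proestrus replicate 5, at 152 CPM. The other F1/proestrus samples reached at most 110 CPM, F2/metestrus 107 CPM and males 123 CPM. Its coefficient without that library was not computed.

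*Camk2a* lies on chromosome 18 at 60925618 to 60988152 (GRCm38, plus strand). The CaMKII α subunit is a main component of the postsynaptic density of excitatory synapses. In F1/proestrus its lowest, median and highest values were 53.7, 65.1 and 81.9 CPM. They were 55.7, 62.4 and 67.5 CPM in F2/metestrus and 57.4, 65.4 and 81.3 CPM in males. The 3 ranges overlapped, with those of F2/metestrus and males both within that of F1/proestrus. *Camk2b*, on chromosome 11 at 5969644 to 6066362 (minus strand), encodes the β subunit, which binds actin. Its lowest, median and highest values were 440, 475 and 513 CPM in F1/proestrus, 440, 462 and 497 CPM in F2/metestrus and 459, 477 and 517 CPM in males, again with overlap of all 3 groups.

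*Prkcb*, on chromosome 7 at 122288751 to 122634402 (plus strand), encodes the β isoform of PKC, activated by calcium and diacylglycerol. Its values ran from 281 over a median of 311 to 324 CPM in F1/proestrus, from 286 over 312 to 322 CPM in F2/metestrus and from 305 over 321 to 339 CPM in males. *Prkca*, on chromosome 11 at 107933387 to 108343928 (minus strand), encodes the α isoform. It ran from 49.4 over 58.3 to 64.8 CPM in F1/proestrus, from 41.0 over 52.3 to 65.1 CPM in F2/metestrus and from 40.8 over 60.8 to 76.0 CPM in males. For both genes the groups overlapped, and males held both the lowest and the highest *Prkca* value of the series. *Prkca* shares 30 bases (0.334%) of its exons with *Apoh* on the opposite strand. The other 7 kinases share no exon with another annotated gene.

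*Prkaca*, on chromosome 8 at 83972993 to 83996443 (plus strand), encodes the catalytic subunit of PKA that is expressed in most tissues. It ran from 260 over 280 to 293 CPM in F1/proestrus, from 268 over 288 to 313 CPM in F2/metestrus and from 272 over 278 to 288 CPM in males. The male range lay within that of each female group.

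*Mapk3*, on chromosome 7 at 126759601 to 126765819 (plus strand), encodes ERK1, at the end of the Ras, Raf and MEK cascade. It ran from 92.1 over 103 to 152 CPM in F1/proestrus, from 93.8 over 103 to 107 CPM in F2/metestrus and from 104.1 over 106 to 123 CPM in males. The highest value, 152 CPM, came from F1/proestrus replicate 5, the library with the sensory ganglion markers, and the other 5 F1/proestrus samples lay between 92.1 and 110 CPM. The part of the ganglion transcripts in that value was not tested. *Mapk14*, on chromosome 17 at 28691329 to 28748406 (plus strand), encodes p38α, known in the spinal cord for its activation in microglia. It ran from 81.8 over 86.2 to 93.1 CPM in F1/proestrus, from 78.7 over 85.8 to 89.4 CPM in F2/metestrus and from 80.9 over 87.0 to 92.8 CPM in males. *Mapk8*, on chromosome 14 at 33377898 to 33447158 (minus strand), encodes JNK1. It ran from 10.1 over 11.9 to 17.5 CPM in F1/proestrus, from 7.75 over 11.6 to 14.2 CPM in F2/metestrus and from 9.77 over 11.7 to 12.6 CPM in males. None of these 3 transcripts separated the groups.

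To ask whether the kinases differ between the sexes, the 6 males were compared with the 12 females taken as a single condition. None of the 8 kinases differed past the threshold of a 5% false discovery rate (FDR) by edgeR's quasi-likelihood test, where 49 of all 24862 genes (0.197%) were called. None had an unadjusted p under 0.05, against 9.72% of all genes. DESeq2, which called 0.596% of the 26495 genes it tested, and limma voom, which called 0.185%, also called none of the 8. The fitted log2 difference (males minus females) ran from -0.11 for *Mapk8* to 0.10 for *Prkca*, that is from 0.925-fold to 1.07-fold, and was above 0 for 6 of the 8. Its median was 0.04, against -0.0013 over all genes tested. The males had a *Prkcb* level of 321 ± 11.7 CPM (mean ± SD, n = 6), and that of the females was 307 ± 14.6 CPM (n = 12). Of the 8 kinases this gene had the smallest unadjusted p (log2 difference 0.06, SE 0.04, unadjusted p = 0.122, adjusted p = 0.600 with edgeR). The 95% intervals set how large a difference the samples still allow. For *Camk2b*, *Prkcb*, *Prkaca* and *Mapk14* they reached no further than 1.10-fold in either direction, for *Mapk3* and *Camk2a* 1.17-fold and 1.195-fold, and for *Prkca* and *Mapk8* 1.26-fold and 1.31-fold. The CPM of the sexes overlapped for all 8 kinases. Over all genes they failed to overlap for 0.125%.

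Within the library sets the sex differences of the 8 kinases ran from -0.28 to 0.17 in replicates 1 to 3 and from -0.08 to 0.08 in replicates 4 to 6, with none past the threshold in either set. In replicates 1 to 3 *Mapk3* was higher (log2 difference 0.15, unadjusted p = 0.0161, adjusted p = 0.556 with edgeR) and *Mapk8* lower (-0.28, unadjusted p = 0.0407, adjusted p = 0.602) in males by the unadjusted test, while in replicates 4 to 6 the estimates were -0.04 and 0.08. The interaction of sex with library set, tested directly, passed the threshold for none of the 8 kinases (smallest adjusted p = 0.970, and none at an unadjusted p under 0.05) and for 0 of 26075 genes (0.0%, with 1238 or 4.75% at an unadjusted p under 0.05). Without F1/proestrus replicate 5 the sex difference of *Mapk3* was 0.11 (unadjusted p = 0.0375, adjusted p = 0.497) in place of 0.05, and again none of the 8 was called. For this fit and that of replicates 1 to 3, the share of all genes at an unadjusted p under 0.05 is not given here. With all 18 samples that share was 9.72% by edgeR. Markers of cell types were set beside the kinases in the same libraries. Of 6 markers of excitatory dorsal horn neurons 1 was called higher in males, with a median log2 difference of 0.10 over the 6. Their summed level ran from 360 to 387 CPM in males and from 326 to 407 CPM in females. The median log2 difference (males minus females) of 5 Schwann cell markers was 0.60, with 1 past the threshold, and their summed level ran from 882 to 2162 CPM in males and from 590 to 1196 CPM in females. The 6 motor neuron markers had a median of -0.59, with none past the threshold and summed levels of 22.9 to 166 CPM in males and 33.03 to 322 CPM in females, the highest in F1/proestrus replicate 5. The 5 sensory ganglion markers tested had a median of -4.68, with none past the threshold, and apart from F1/proestrus replicate 5 their summed level was at most 2.63 CPM. The part of these cells in the sex comparison was not tested, and in bulk tissue fewer cells of a type and less RNA per cell cannot be told apart.

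**Figure D2:**
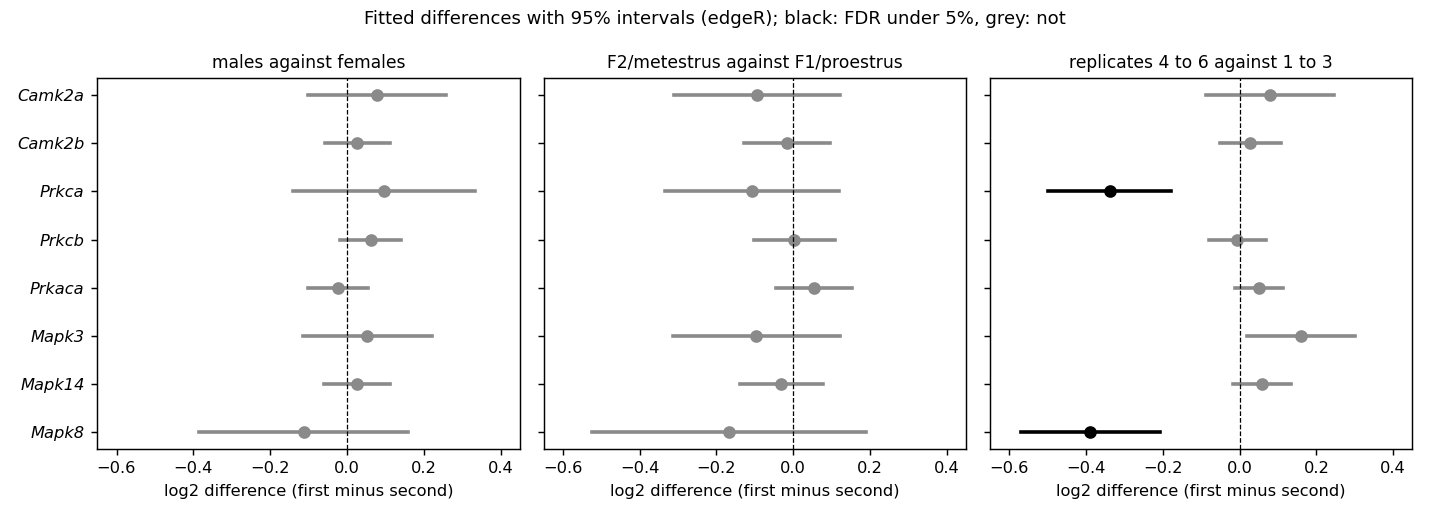
Fitted log2 differences (horizontal axes) of the 8 kinases with 95% intervals from edgeR for males against females, F2/metestrus against F1/proestrus, and replicates 4 to 6 against 1 to 3, in black where the FDR was under 5%. *Prkca* (-0.34) and *Mapk8* (-0.39) between the library sets are the only points past the threshold in the 3 comparisons.

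To ask whether the kinases differ between the female groups, the 6 F2/metestrus were compared with the 6 F1/proestrus females. These groups differ in cycle phase and in the length of the interphase, which cannot be told apart here. None of the 8 passed the threshold with edgeR, DESeq2 or limma voom, and none had an unadjusted p under 0.05 with edgeR. Over all 24042 genes tested edgeR called 0 (0.0%), with 596 (2.48%) at an unadjusted p under 0.05, limma voom called 0 of the same genes (0.0%), and DESeq2 called 2 of the 44127 genes it tested (0.00453%). The log2 difference (F2/metestrus minus F1/proestrus) ran from -0.17 for *Mapk8* to 0.05 for *Prkaca* and was below 0 for 6 of the 8, with a median of -0.06 against -0.0004 over all genes. The intervals of *Camk2b*, *Prkcb*, *Mapk14* and *Prkaca* reached no further than 1.11-fold, those of *Camk2a*, *Mapk3* and *Prkca* 1.24-fold, 1.24-fold and 1.26-fold, and that of *Mapk8* 1.44-fold. All 8 kinases overlapped between the female groups. Of all genes, 0.105% did not overlap. The *Mapk3* estimate depended on a single library, being -0.10 with all 12 samples and 0.02 without F1/proestrus replicate 5, neither past the threshold. Within replicates 1 to 3 the 8 estimates ran from -0.27 to 0.08 and within replicates 4 to 6 from -0.25 to 0.08. The interaction of female group with library set had its smallest unadjusted p at *Mapk3* (0.0384, adjusted p = 0.9997 with edgeR), the 1 kinase of the 8 below 0.05, against 3.26% of all genes. Without F1/proestrus replicate 5 it was -0.15 in place of -0.34 (unadjusted p = 0.103 with edgeR), and none of the 8 was below 0.05. At the FDR threshold that interaction was called for 2 of 25332 (0.0079%), and none of the 2 was a kinase of the 8.

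The clearest differences among the kinases lay between the library sets, which hold 3 samples of every group each. *Mapk8* had a lowest, median and highest value of 11.2, 13.5 and 17.5 CPM in replicates 1 to 3 and of 7.75, 10.3 and 12.1 CPM in replicates 4 to 6. Its log2 difference (replicates 4 to 6 minus 1 to 3, with group in the fit) was -0.39 (SE 0.09, adjusted p = 0.00217). *Prkca* had 54.1, 62.3 and 76.0 CPM in replicates 1 to 3 and 40.8, 49.4 and 61.9 CPM in replicates 4 to 6, with a log2 difference of -0.34 (SE 0.08, adjusted p = 0.00255). Both were thus lower in the higher library numbers, by 23.6% and 20.9%, although the ranges of the sets overlapped. *Mapk3* was at 101 ± 7.57 CPM in replicates 1 to 3 and 113 ± 16.1 CPM in replicates 4 to 6 (SD, n = 9 each) and did not pass the threshold (log2 difference 0.16, unadjusted p = 0.0284, adjusted p = 0.0875). Without F1/proestrus replicate 5 the difference of *Mapk3* was 0.09 (adjusted p = 0.127), that of *Mapk8* -0.38 and that of *Prkca* -0.38. The other 5 kinases had log2 differences between -0.01 and 0.08. Markers of cell types were compared between the same sets, where 26.9% of all genes were called. Of 6 markers of excitatory dorsal horn neurons 4 were called higher in replicates 4 to 6. Their summed level was 355 to 407 CPM there, against 326 to 379 CPM in replicates 1 to 3. Of 6 microglial markers 3 were higher and 1 lower, and of 6 endothelial markers 1 was higher and 2 lower. The lists for neurons, oligodendrocytes, Schwann cells and sensory ganglion neurons had 1 call each, all higher. Inhibitory neurons had 1 call, lower, and motor neurons and astrocytes had 0. The part of these cells in the differences of *Mapk8* and *Prkca* was not tested.

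The 2 calls among 8 kinases (25%) stand beside 6774 calls among 25180 genes (26.9%, with 14.2% higher and 12.7% lower in replicates 4 to 6), so that the share of kinases called was near that of all genes. DESeq2 (26.1% of the 28181 genes it tested) and limma voom (31.0%) called the same 2 kinases. At an unadjusted p under 0.05 there were 3 of the 8, with *Mapk3*, and 37.6% of all genes. None of the 8 failed to overlap between the sets, against 4.08% of all genes. Fitted in the females alone, *Mapk8* (-0.50, adjusted p = 0.00553) and *Prkca* (-0.28, adjusted p = 0.0259) were called. In the 6 males alone *Prkca* (-0.47, adjusted p = 0.0919) and *Mapk8* (-0.17, adjusted p = 0.399) were not. Over all genes the same fits called 3908 in the females alone and 1198 in the males alone, so that fewer genes of any kind were called in the males. The interaction of sex with library set for *Mapk8* was 0.35 (males minus females, unadjusted p = 0.0644, adjusted p = 0.970), and for *Prkca* -0.19 (adjusted p = 0.970).

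The difference between the library sets varied with the base composition of the transcripts. Over 25165 genes, Spearman's rho between the GC content of the longest transcript and the log2 difference was 0.30, and between transcript length and the difference -0.27, as a description across genes, which are not independent replicates. Genes with a GC content below 40% had a median difference of -0.13 and genes at 60% and above 0.12. *Mapk8* (GC 40.1%) and *Prkca* (46.4%), with the most negative differences of the 8 kinases, had the lowest GC content, and *Mapk3* (57.6%), with the most positive difference, the highest. The median differences in the classes that hold *Mapk8* and *Prkca*, 40 to 45% and 45 to 50%, were -0.06 and -0.02, smaller in size than those of the 2 genes. The part of base composition in the 2 calls was not tested.

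**Figure D3:**
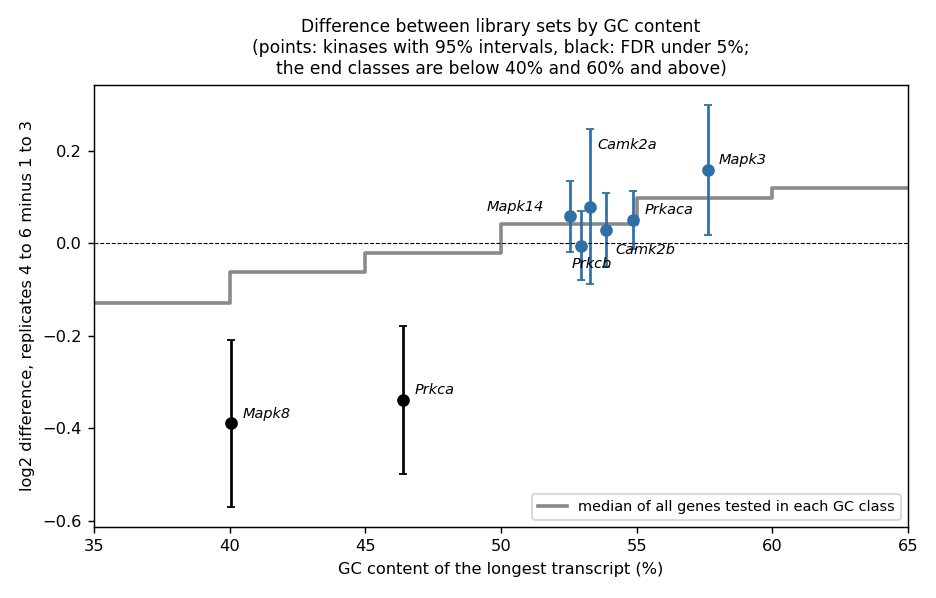
Log2 difference between replicates 4 to 6 and 1 to 3 (vertical axis) against the GC content of the longest transcript in percent (horizontal axis), with the kinases as points with 95% intervals and the median of all genes in each GC class as a grey line. *Mapk8* and *Prkca*, in black, are the points past the threshold and lie below the median of their GC class, while the intervals of the other 6 include the median of their class.

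*Camk2b* and *Prkcb* rose and fell together from mouse to mouse. Over the 18 samples, Pearson's r of their log2 CPM was 0.88 and Spearman's rho 0.89, with a permutation p of 1e-05 for each, the smallest that 100000 resamples can give, and an adjusted p of 0.00028 over the 28 pairs of kinases. The samples with the least *Camk2b*, F1/proestrus replicates 1 and 5 and F2/metestrus replicate 5, with 440, 443 and 440 CPM, had 296, 281 and 286 CPM of *Prkcb*. The male replicate 2, with the most *Camk2b* (517 CPM), also had the most *Prkcb* (339 CPM). Without the 2 samples farthest from the median of *Camk2b*, r was 0.86. It was 0.90 within replicates 1 to 3, 0.92 within replicates 4 to 6, 0.91 with the group means removed and 0.88 without F1/proestrus replicate 5. Among 17765 genes with a mean of at least 1 CPM, *Camk2b* was the gene whose pattern over the 18 samples was most like that of *Prkcb*. Both transcripts were measured in the same libraries, so that anything that moves a library as a whole is shared by them.

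**Figure D4:**
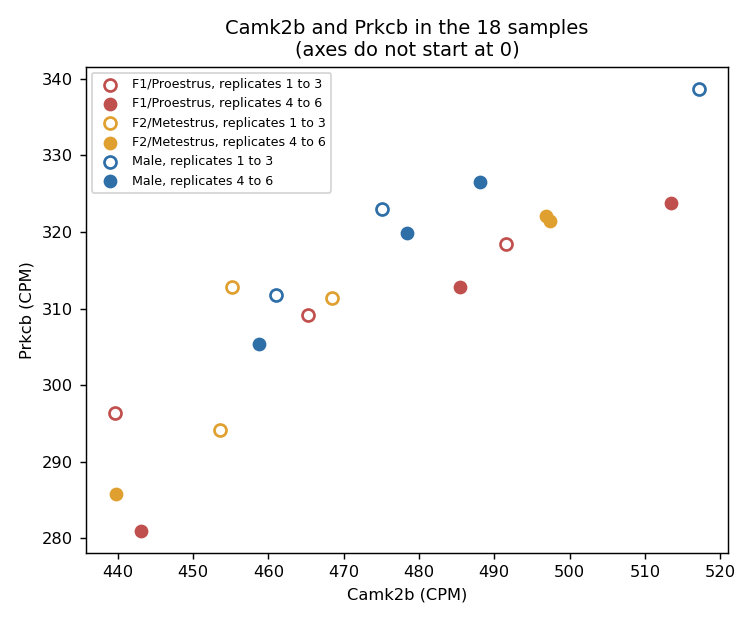
CPM of *Camk2b* (horizontal axis) and *Prkcb* (vertical axis) in the 18 samples, coloured by group, with open points for replicates 1 to 3 and filled points for replicates 4 to 6, on axes that do not start at 0. The points of each group and of each library set lie along a single rising band, from 281 to 339 CPM of *Prkcb*.

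The promoter sequences of this pair are shown because the 2 transcripts moved together. The set of promoters used here, placed by RefSeq starts (GRCm38.p6), held 6 of the 8 kinases. The 250 bases before the RefSeq start of *Camk2b* are at chr11:6065749-6065998 on the minus strand. They lie within the span that GENCODE gives the gene (5969644 to 6066362), whose outermost start is further upstream. For *Prkcb*, whose window overlaps an annotated untranslated exon, 30 bases are given at chr7:122289025-122289054 on the plus strand, around the first match, which begins 88 bases before the start. Capitals mark the letters GGGCGG of the GC box, searched with its reverse complement CCGCCC on both strands.
Camk2b: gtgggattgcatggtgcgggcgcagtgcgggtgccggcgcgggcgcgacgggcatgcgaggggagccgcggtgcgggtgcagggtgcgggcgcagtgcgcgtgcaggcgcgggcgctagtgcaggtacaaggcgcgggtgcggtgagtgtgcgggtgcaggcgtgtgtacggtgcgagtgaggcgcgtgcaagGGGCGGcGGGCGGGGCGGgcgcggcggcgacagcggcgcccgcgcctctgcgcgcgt
Prkcb: gctggcggctctGGGCGGggcctgggtttc
The *Camk2b* stretch held 3 matches, the last 2 of which overlap by 1 base, and had a GC content of 78.4%, against a median of 52.4% over the same stretch of all 32851 promoters. A GC box match was present in 32.7% of those stretches, and in each of the 6 of the kinases. The cyclic AMP response element TGACGTCA, present in 1.55% of all promoters, was found in none of the 6, which says only that these letters are not in the windows searched.

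Of the other 27 pairs of kinases, *Prkaca* and *Mapk8* passed the threshold by Pearson's r (-0.71, permutation p = 0.00132, adjusted p = 0.0185) and not by Spearman's rho (-0.46, adjusted p = 0.152). Without the 2 samples farthest from the median of *Prkaca* its r was -0.39, so that this relation rested on those samples, and r was -0.85 within replicates 1 to 3 and -0.51 within replicates 4 to 6. *Mapk8* was also inversely related to *Mapk3* (rho = -0.78, adjusted permutation p = 0.00434) and to *Mapk14* (rho = -0.71, adjusted permutation p = 0.0133) by rank, while their Pearson's r of -0.57 and -0.62 gave adjusted permutation p of 0.0828 and 0.0590. With the means of the library sets removed, the adjusted permutation p of rho was 0.0853 for both pairs. Within replicates 1 to 3 r of *Mapk3* and *Mapk8* was -0.88 and within replicates 4 to 6 -0.09, and r of *Mapk14* and *Mapk8* was -0.51 and -0.54. Leaving out F1/proestrus replicate 5 raised the number of pairs past the threshold by Pearson's r from 2 to 6. These were *Camk2b* with *Prkcb*, *Camk2b* and *Prkcb* each with *Mapk14* (r = 0.65 and 0.66), and *Mapk8* with *Prkaca*, *Mapk3* and *Mapk14* (r = -0.71, -0.73 and -0.61). *Prkca* and *Mapk3* had an r of 0.09 over the 18 samples and passed the threshold with the means of the library sets removed (r = 0.68, permutation p = 0.00119, adjusted p = 0.0167). Their r was 0.32 within replicates 1 to 3 and 0.83 within replicates 4 to 6 (adjusted permutation p = 0.00924). With the set means removed, the adjusted permutation p of rho was 0.136, and r was 0.46 and 0.43 without the 2 samples farthest from the median of *Prkca* and of *Mapk3*.

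For each kinase the gene with the most similar pattern over the 18 samples was named, without a test. It was *Tunar* for *Camk2a* (r = 0.85), *Hap1* for *Camk2b* (0.89), *Arhgap31* for *Prkca* (0.90) and *Gm17114* for *Prkaca* (0.90). For *Mapk3* it was *Insm2* (0.91, with a rho of 0.66), for *Mapk14* ENSMUSG00000116652, which has no symbol here (0.84), and for *Mapk8* *4930404I05Rik* (0.91). *Arhgap31* was like *Prkca* to a different degree in the 2 library sets, with r of 0.61 and 0.91.

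The CaMKII, PKA, p38 and JNK genes were then set beside their paralogs, on the scale of CPM per kilobase of exon. *Camk2b* made up 62.4 ± 1.07% of the summed level of the 4 CaMKII genes (SD, n = 18), with *Camk2g* at 15.1 ± 0.925%, *Camk2d* at 12.0 ± 0.629% and *Camk2a* at 10.4 ± 1.13%. *Camk2b* was thus 6.05 ± 0.672 times as abundant as *Camk2a*, with a range of 4.62 to 7.09 over the 18 samples. *Prkcb* was 6.68 ± 1.33 times as abundant as *Prkca* on the same scale (14.4 times by the longest transcript), with a range of 4.99 to 9.40. Of the catalytic subunits of PKA, *Prkaca* held 70.7 ± 2.42% and *Prkacb* the rest.

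The p38 and JNK families differed in the place of the kinase examined here. *Mapk14* led the p38 genes with 55.8 ± 2.58%, ahead of *Mapk11* (33.2 ± 2.39%) and *Mapk12* (10.8 ± 0.947%), and *Mapk13* contributed 0.229 ± 0.104%. Among the JNK genes *Mapk8* was a minor member with 1.197 ± 0.195%, below *Mapk9* (72.7 ± 1.124%) and *Mapk10*, the isoform known for its expression in neurons (26.1 ± 1.201%). The least *Mapk9* over *Mapk8* in any sample was 44.02-fold. The shares depend on the length that is used. With the longest transcript in place of all exons, *Camk2a* held 6.85%, *Camk2d* 21.4%, *Prkaca* 56.7% and *Mapk8* 1.61%.

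The share of each kinase in its family overlapped between the 3 groups. *Camk2b* held 62.2 ± 0.423% of the CaMKII genes in F1/proestrus, 62.5 ± 1.53% in F2/metestrus and 62.5 ± 1.13% in males (SD, n = 6 each). *Prkaca* held 70.5 ± 2.95%, 70.0 ± 2.16% and 71.7 ± 2.16% of its family in the same order, *Mapk14* 55.1 ± 3.53%, 56.6 ± 0.901% and 55.6 ± 2.81%, and *Mapk8* 1.29 ± 0.262%, 1.119 ± 0.197% and 1.19 ± 0.0756%. Each of these differences was smaller than the larger SD of the groups compared, and none was tested. Between the library sets the JNK and PKA families differed by more than the larger SD, although each range overlapped. From replicates 1 to 3 to replicates 4 to 6, *Mapk10* went from 25.1 ± 0.617% to 27.1 ± 0.538% of the JNK genes (SD, n = 9 each), *Mapk9* from 73.6 ± 0.643% to 71.8 ± 0.640% and *Mapk8* from 1.32 ± 0.168% to 1.08 ± 0.139%. *Prkaca* went from 69.3 ± 2.58% to 72.1 ± 1.15%. *Camk2b* (62.1 ± 0.671% and 62.7 ± 1.33%) and *Mapk14* (56.0 ± 1.86% and 55.6 ± 3.25%) differed by less than the larger SD, and none of these shares was tested.

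**Figure D5:**
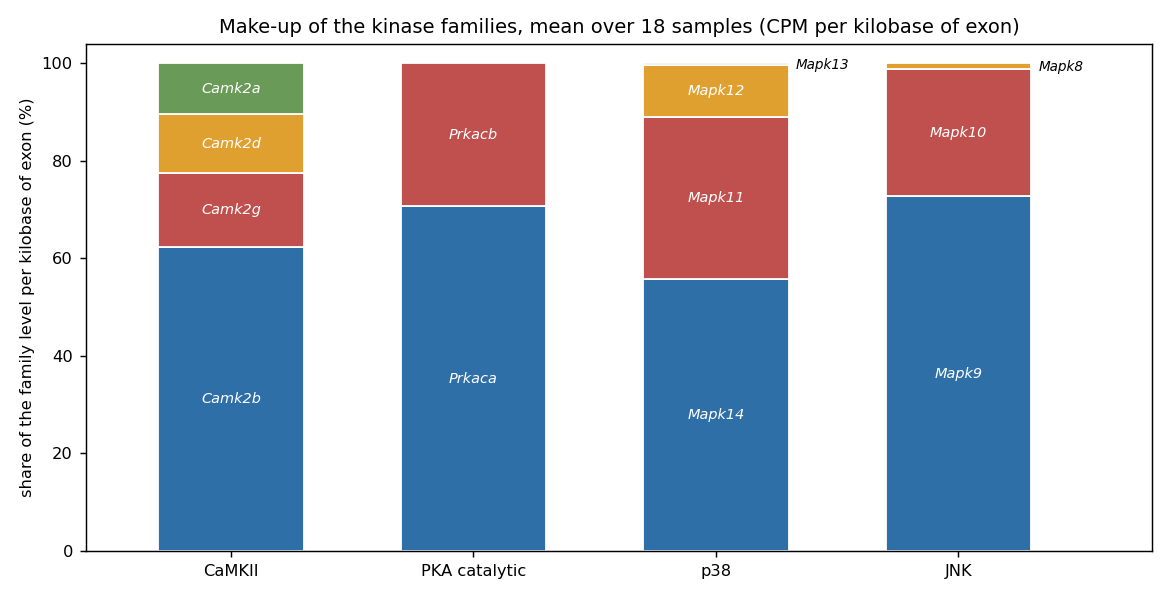
Stacked bars of the mean share (vertical axis, percent of CPM per kilobase of exon, 18 samples) of each gene in the CaMKII, PKA catalytic, p38 and JNK families. *Camk2b*, *Prkaca* and *Mapk9* each hold more than 60% of their family, and *Mapk8* and *Mapk13* are thin slices at the top.

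The kinases were then placed in their pathways, with 88 further genes in lists for CaMKII and calmodulin, PKC, PKA, ERK, p38, JNK, phosphatases and substrates, all of which were tested. Between the sexes, edgeR called none of the 88, with 10 at an unadjusted p under 0.05 (over all genes, 9.72%), and DESeq2 and limma voom also called none. The genes with the smallest p of 7 of the 8 lists are given here. *Adcy1*, a calcium-stimulated adenylyl cyclase that feeds PKA, had 155 ± 21.6 CPM in males and 132 ± 13.7 CPM in females (log2 difference 0.23, adjusted p = 0.328). *Ptpn5*, the phosphatase STEP that dephosphorylates ERK, had 125 ± 7.35 and 113 ± 7.51 CPM (0.14, adjusted p = 0.323). *Rack1*, which anchors PKC, *Camk2n1*, an inhibitor of CaMKII, *Ppp1ca*, a catalytic subunit of protein phosphatase 1, *Tab1*, which activates p38, and *Mapk10* had log2 differences of 0.12, 0.23, 0.12, 0.06 and -0.08, none past the threshold. The groups overlapped for each of these genes.

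Between F2/metestrus and F1/proestrus edgeR, DESeq2 and limma voom called none of the 88, with 3 at an unadjusted p under 0.05 by edgeR, against 2.48% of all genes. The largest estimate was that of *Trpv1*, the capsaicin receptor and a target of PKA and PKC in sensory neurons, at -4.99, which came from F1/proestrus replicate 5. There *Trpv1* had 32.2 CPM, against 0.0103 to 0.356 CPM in the other 17 samples. *Mapk11*, the p38β gene (31.6 ± 1.49 CPM in F2/metestrus and 35.3 ± 6.08 CPM in F1/proestrus), *Prkce* (53.3 ± 1.42 and 58.5 ± 5.23 CPM), which encodes a calcium-independent PKC, and *Dusp5* (4.46 ± 0.422 and 5.66 ± 1.69 CPM), a phosphatase of ERK, had log2 differences of -0.16, -0.14 and -0.34 with adjusted p of at least 0.99998. *Camk4* (0.10), *Adcy1* (-0.11), *Ksr1* (-0.18) and *Jun* (0.08) did not pass the threshold either.

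Between the library sets, 30 of the 88 related genes (34.1%, against 26.9% of all genes) passed the threshold, 13 higher and 17 lower in replicates 4 to 6. Of the 10 genes on the list of CaMKII and calmodulin 3 were called, all higher. Among them were *Calm3* (805 ± 59.1 against 595 ± 66.6 CPM, log2 difference 0.44), which encodes calmodulin, and the CaMKII inhibitor *Camk2n2* (0.24). On the PKC list *Rack1* was higher (0.18) and the phospholipases *Plcb4* (-0.19) and *Plcb1* (-0.14) were lower, of 10 tested. On the PKA list *Pkig* (0.23), an inhibitor of the catalytic subunit, and *Prkar1b* (0.14), a regulatory subunit, were higher, and the anchoring protein *Akap5* (-0.31) and *Prkacb* (-0.15) were lower, of 11.

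The share of genes called was 36.4% on the ERK list, 27.3% on the p38 and JNK lists and 25% on the phosphatase list, beside 26.9% of all genes. Among 11 ERK genes *Map2k2* (0.23) and *Hras* (0.22), 2 upstream members of the cascade, were higher in replicates 4 to 6, and *Braf* (-0.20), which activates MEK, and *Rps6ka3* (-0.37), a ribosomal S6 kinase activated by ERK, were lower. Among 11 p38 genes *Map2k6* (0.14) and *Rps6ka4* (0.14) were higher and *Rps6ka5* (-0.20) was lower. Among 11 JNK genes, 3 were lower, *Mapk9* (-0.13) and the scaffolds *Mapk8ip1* (-0.21) and *Mapk8ip3* (-0.15), and none was higher. Of 12 phosphatases 3 were higher, *Ppp1ca* (0.15), *Dusp14* (0.25) and *Dusp10* (0.20), and none lower. Of 12 substrates 7 (58.3%) were lower and none higher, against 12.7% of all genes lower. Among them were the metabotropic glutamate receptor *Grm5* (88.2 ± 7.34 against 118 ± 9.56 CPM, log2 difference -0.43), the AMPA receptor subunit *Gria1* (-0.30), the NMDA receptor subunit *Grin2b* (-0.28) and *Kcnd2* (-0.22), a potassium channel that ERK phosphorylates. The adjusted p of these named genes ran from 3.37e-06 for *Calm3* to 0.0382 for *Prkacb* with edgeR. The calls of *Map2k6*, *Prkacb*, *Braf*, *Plcb1* and *Rps6ka4* were lost on leaving out a single sample, for 10, 9, 5, 3 and 2 of the 18 samples respectively. The GC content of the longest transcript was 42.5% for *Grm5*, 48.5% for *Gria1*, 45.7% for *Grin2b* and 44.4% for *Kcnd2*. The median over the genes tested was 49.3%. *Mapk8ip1* (59.6%) and *Mapk8ip3* (57.4%), also lower, lay above that median. The part of base composition in these calls was not tested. The values of the lists describe these libraries, and no test set a list against other genes.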

How the data were processed

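Polyadenylated RNA of the ipsilateral DHSC was sequenced from 18 single mice, 6 for each group, and samples were grouped by their titles. The authors deposited raw counts per Ensembl gene, for which, per the methods, uniquely mapped reads were aligned by Subread to the mm10 genome and assigned to exons by featureCounts. The labels name Subread 2.0.3, whereas the methods name another release. Whether strand was used is not given in the sources used here. The methods name the TruSeq kit and the labels SMART-Seq amplification with Nextera XT tagmentation. A further table deposited by the authors holds DESeq2 values (version 1.3.0 per the labels) of a single comparison, which were not used. Its column of gene symbols, a text column of another unit, was used to find the 8 kinases. Positions and exon lengths come from GENCODE on GRCm38.

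Counts were tested with edgeR 4.0.16 (R 4.3.3), a low-count filter by filterByExpr (at least 10 counts per library and 15 in total), TMM normalization and quasi-likelihood F-tests, and p-values were adjusted after Benjamini and Hochberg over all genes tested. The males were compared with all females, F2/metestrus with F1/proestrus among the females, and replicates 4 to 6 with 1 to 3 with group as a covariate. CPM are counts divided by the TMM-scaled size of the library and set to a common total, log2 CPM use a prior count of 2, and CPM per kilobase divide by the length of all exons of a gene. Correlations were tested with two-sided permutation tests. Intervals are at 95%, and the limit of 3 counts covers counting error only. No columns were identical between samples, and p-values measure the spread between these mice. The edgeR tests were tried on simulated counts in which 200 genes were changed by a known fold. At 1.2-fold they recovered 12% of these between the sexes, 0% between the female groups and 28% between the library sets. At 1.5-fold the shares were 79%, 61% and 88.5%. Differences of 1.2-fold were thus mostly missed. Alternatives were DESeq2 1.42.0, limma voom with quality weights (3.58.1), size factors in place of TMM, other filters, the replicate number as a block, the library set as a covariate, subsets of samples and leaving out each sample. Centring within library sets, and the correlations and interactions without F1/proestrus replicate 5, were added after seeing the data.

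The kinases, the pathway and marker lists and the comparison of library sets were chosen with earlier results of these data known. Named related genes are those past an FDR of 5% (at most 4 per list, by p) and the 1 gene per list with the smallest p between the sexes and between the female groups. For each kinase the 1 gene with the highest r over the 18 samples is named. Some related genes and the make-up of 2 families are not reported here.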

Additional observations from a re-analysis of the deposited data

Results flagged for a closer look

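Of 24 groups of 6 samples (8 kinases in 3 groups), 1 held a sample far from the others. *Mapk3* reached 152 CPM in F1/proestrus replicate 5, while the other 5 F1/proestrus samples lay between 92.1 and 110 CPM, so that the gap to the nearest sample took 0.700 of the whole range, above Dixon's critical value for a group of this size. Chance alone gives a gap past that critical value in about 1 of 20 groups. The same library had 410 CPM of the 6 sensory ganglion neuron markers together, against at most 2.63 CPM in the other 17 samples, and the part of those transcripts in the *Mapk3* value was not tested.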

How the results depend on the processing

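No kinase was called between the sexes or between the female groups under any of the alternatives run, and *Mapk8* and *Prkca* were called between the library sets under each of them except in the males alone, where 0 kinases were called. Some estimates changed sign. Between the sexes this was so for *Prkaca* in replicates 1 to 3 alone (0.026), for *Camk2b* (-0.0082), *Prkca* (-0.014), *Mapk3* (-0.041) and *Mapk8* (0.080) in replicates 4 to 6 alone, and for *Mapk3* against F1/proestrus alone (-0.0031). Between the female groups it was so for *Prkcb* with at least 10 counts in every sample (-0.00018), and in replicates 1 to 3 alone for *Camk2a* (0.015), *Prkcb* (-0.015), *Mapk3* (0.081), *Mapk14* (0.0052) and *Trpv1* (0.63), whose estimate of -4.99 came from F1/proestrus replicate 5. Between the library sets it was so for *Prkcb* with limma voom (0.010) and in the females alone (0.0021), and for *Camk2b* (-0.030) and *Prkaca* (-0.037) in the males alone. None of these estimates passed the threshold, and apart from *Trpv1* the cause was not tested.

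Leaving out each sample in turn, the log2 difference between the sexes ran from -0.0021 to 0.035 for *Camk2b* and from -0.0045 to 0.038 for *Mapk14*. That between the female groups ran from -0.036 to 0.0096 for *Camk2b*, from -0.020 to 0.026 for *Prkcb*, from -0.14 to 0.024 for *Mapk3* and from -5.31 to 0.87 for *Trpv1*, the upper ends of the last 2 without F1/proestrus replicate 5. That between the library sets ran from -0.022 to 0.011 for *Prkcb*, from -0.43 to -0.35 for *Mapk8* and from -0.40 to -0.30 for *Prkca*.

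The number of genes called between the sexes moved more than the kinases did, from 49 to 158 with DESeq2, 31 with at least 10 counts in every sample, 133 with the library set as a covariate, 16 and 13 in replicates 1 to 3 and 4 to 6 alone, and 13 and 22 against F1/proestrus and F2/metestrus alone. Leaving out each sample gave 25 (without male replicate 5) to 77 (without F1/proestrus replicate 5), with 30 without male replicate 4. Between the female groups DESeq2 called 2 genes in place of 0, and without F1/proestrus replicate 5 the interaction of female group with library set was called for 49 genes in place of 2, with 0 of the 8 kinases called. Between the library sets 1198 genes were called in the males alone and 3908 in the females alone in place of 6774, with fewer samples in each fit, and 5745 to 6953 on leaving out each sample. The pairs of kinases past the threshold rose from 2 to 4 with the group means removed and to 6 without F1/proestrus replicate 5. With the longest transcript, the family shares were 6.85% for *Camk2a*, 60.3% for *Camk2b*, 56.7% for *Prkaca* and 1.61% for *Mapk8*.

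Same-numbered samples came from different mice, as the groups differ in sex or cycle phase. The correlations of same-numbered samples describe how alike they were and do not decide whether they shared a day or batch. The deviations of same-numbered samples from their group means correlated at -0.10 to 0.23, above 0.1 in 9 of 18 pairs, and 5 of 18 samples were most like a sample of their own number. With the replicate number as a block 112 genes were called between the sexes, in place of 49, and 0 between the female groups. In either comparison 0 kinases were called, with the call of no kinase changed.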
